A study of Rattus norvegicus with 6 samples.

Results

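The 7 genes Ccdc184, Rln1, Mtss1, Phldb3, Disp1, Slfn2 and Plscr1 were taken by their exact symbols from the 18286 genes of the deposited table. They had been picked because they were well expressed in control cells and lower in cells treated with dihydrocoumarin (DHC), a lactone related to coumarin. Their control level and their difference between the groups are therefore given as a description, with no test. The cells were RBL-2H3, a leukemia line of rat basophils that bears the high-affinity IgE receptor and serves as a mast cell model, with 3 libraries labelled DHC and 3 control libraries whose treatment label is none. All 6 samples carry 1 protocol text, in which cells were sensitized for 12 h with anti-DNP IgE (50 ng/ml) and then challenged for 4 h with DNP-HSA (100 ng/ml), the antigen. How much DHC was given, for how long, and whether control cells were challenged is not clear from the labels used here. Nothing in them shows that libraries within a group are separate cultures, and p-values then measure only a spread between libraries that may be technical.

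The 7 genes belong to unrelated families. Rln1 encodes relaxin, a secreted peptide hormone of the insulin superfamily that is best known from pregnancy, acts through the receptor RXFP1, and has been reported to lower histamine release from rat mast cells. Plscr1 encodes phospholipid scramblase 1, a lipid-anchored membrane protein that is induced by interferon and becomes phosphorylated on tyrosine when the IgE receptor of RBL-2H3 cells is crosslinked. Slfn2 encodes a Schlafen protein, which in mice keeps T cells and monocytes quiescent and is also induced by interferon. Mtss1 encodes an I-BAR protein that bends the plasma membrane and binds actin. Phldb3 is the least known of a family whose other members, also called LL5 proteins, attach microtubule ends to the cell cortex. Disp1 encodes Dispatched, the multipass membrane protein that releases cholesterol-bearing Hedgehog ligands from the cells that make them. Ccdc184 is named only for a predicted coiled coil.

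On the rat build Rnor_6.0 the genes lie on 5 chromosomes. Rln1 has 2 exons at chr1:247483302-247486202 on the minus strand, and Phldb3 has 17 exonic blocks at chr1:81474553-81492631 on the plus strand. Ccdc184 is a single exon of 1400 bases at chr7:139762614-139764013 (plus), and Mtss1 has 15 exonic blocks at chr7:98820812-98960837 (minus). Slfn2 lies at chr10:70370300-70376331 (plus), Plscr1 at chr8:99625545-99725217 (plus) and Disp1 at chr13:101451932-101597570 (minus). The summed exon length ranged from 792 bases in Rln1 to 5031 in Disp1, and each value below is over all annotated exons of the gene. No exon of the 7 genes overlapped an exon of another gene of the table.

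For Ccdc184, Slfn2 and Plscr1 the 250 bases before the transcription start annotated in RefSeq on the build GRCr8 are shown, since these 3 of the 7 genes have an entry in the promoter table used here. In capitals stand the match to TGACGT or its reverse complement (part of the cyclic AMP response element) in Ccdc184, to TGANTCA (AP-1) in Slfn2, and to GGGCGG (GC box) in Plscr1. The windows are chr7:131178482-131178731, chr10:68450611-68450860 and chr8:101663871-101664120, all on the plus strand.
Ccdc184: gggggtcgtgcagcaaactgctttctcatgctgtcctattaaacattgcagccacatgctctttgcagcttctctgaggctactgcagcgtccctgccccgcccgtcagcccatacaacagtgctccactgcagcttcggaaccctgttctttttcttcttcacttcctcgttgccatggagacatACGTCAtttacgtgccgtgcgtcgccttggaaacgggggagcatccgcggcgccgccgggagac
Slfn2: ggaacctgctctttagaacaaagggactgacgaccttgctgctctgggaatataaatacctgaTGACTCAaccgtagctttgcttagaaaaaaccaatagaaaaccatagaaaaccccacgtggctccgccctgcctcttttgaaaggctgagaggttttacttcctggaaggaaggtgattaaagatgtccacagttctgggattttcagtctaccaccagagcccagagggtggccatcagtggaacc
Plscr1: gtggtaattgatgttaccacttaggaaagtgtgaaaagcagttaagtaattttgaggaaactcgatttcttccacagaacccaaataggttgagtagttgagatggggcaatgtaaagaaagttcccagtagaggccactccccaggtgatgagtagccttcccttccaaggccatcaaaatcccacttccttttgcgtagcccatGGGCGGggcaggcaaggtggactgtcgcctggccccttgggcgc
The Plscr1 window ends 1609 bases inside the span that RefSeq gives this gene, so it belongs to one of its transcripts.

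Both strands of these windows were searched for 9 motifs, and no match overlapped a match to another motif. In parentheses stand the share of all 33469 windows of this length in the reference that hold the motif and, second, its share of the 7942 windows of genes that passed the filter of 1 RPKM on their mean level. The match to part of the cyclic AMP response element in Ccdc184 begins at base −64 (6.95% and 11.8%). The AP-1 match of Slfn2 begins at −187 (6.34% and 4.27%), and the same window holds TATAAA at −200 (12.9% and 6.16%). GGGCGG was present in all 3 windows (30.5% and 59.4%), as was CANNTG, the E-box (65.5% and 55.0%). GGAAA, the core that NFAT factors bind, stood in the Ccdc184 and Plscr1 windows (56.9% and 53.8%). None of the 3 windows held AGATAA, the GATA motif, for which T in the first place and G in the last were also allowed (27.0% and 17.4%). The same was true of the interferon response motif, written as GAAA, any 2 bases and again GAAA (3.41% and 2.57%), and of CCGGAAG, an ETS core (7.27% and 17.1%). The Ccdc184 window had 57.6% G and C and 17 CpG dinucleotides, the Plscr1 window 50.0% and 5, and the Slfn2 window 47.6% and 4, against medians of 51.2% and 5.0 over all windows.

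The deposited values are RPKM, in which the reads of a gene are divided by its exon length and by the library's total of reads assigned to genes. The DHC libraries held 29190987 to 31299551 assigned reads and the control libraries 29084976 to 34170922, so that 3 reads correspond to between 0.0878 and 0.103 RPM, the same unit without the division by length, a limit that covers counting error only. Among 10 mast cell and basophil markers with values, 9 averaged at least 1 RPKM, and their sum lay between 710.5 and 735.9 RPKM in DHC libraries and between 1026 and 1056 RPKM in control libraries. Most of that difference lay in Gata2, at 69.9 RPKM with DHC and 344.6 RPKM in controls, with Kit at 64.4 RPKM with DHC and 114.7 RPKM in controls and Il1rl1 at 14.9 RPKM with DHC and 48.5 RPKM in controls. The IgE receptor gene Ms4a2, at 368.5 RPKM with DHC and 320.9 RPKM in controls, was higher with DHC (limma adjusted p = 0.0166), and Fcer1a was at 109.8 RPKM with DHC and 106.7 RPKM in controls (0.70). Tpsb2 was the marker below that level of 1 RPKM, at 0 RPKM with DHC and 0.0168 RPKM in controls. Of the markers of other cells, 1 of 4 for T cells (Cd3e), 0 of 3 for B cells, 1 of 4 for macrophages (Cd68), 1 of 3 for fibroblasts (Col3a1) and 0 of 2 for erythroid cells reached 1 RPKM. The T cell sum was 40.6 to 43.8 RPKM in DHC and 31.8 to 37.5 RPKM in control libraries, and the share of mitochondrial reads 3.91% to 4.14% in DHC and 3.34% to 3.53% in control libraries. The part of these differences in the values below was not tested. In RNA from bulk cultures, fewer cells that express a gene and less RNA per cell cannot be told apart.

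Each of the 7 genes was lower in all 3 DHC libraries than in any control library. Of the 10667 genes whose mean over the 6 libraries reached 1 RPKM, 21.6% had all 3 DHC values below all 3 control values, and in 49.7% the groups did not overlap in one direction or the other. With limma, which models each gene's spread with help from all others, 16.1% were lower with DHC at an adjusted p under 0.05 (Benjamini-Hochberg). At the same threshold 18.4% were higher. The 7 genes were chosen from this contrast, so nothing is read from their number. The DHC mean was between 8.15% of the control mean (Ccdc184) and 43.7% (Phldb3).

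Rln1 was by far the most abundant of the 7. It stood at 460.5, 422.1 and 453.7 RPKM in the DHC libraries, against 1235, 1293 and 1233 RPKM in the control libraries. The groups lay well apart, with DHC replicate 2 the lowest and control replicate 2 the highest library. The means were 445.4 ± 20.5 RPKM with DHC and 1254 ± 34.0 RPKM in controls (SD, n = 3 each), a 2.81-fold lower level. These values rest on 10463 to 10822 reads per DHC library and 29781 to 33358 reads per control library. In the control transcriptome Rln1 ranked 64 by mean RPKM, and with DHC 197, out of 18286 genes. Of the 64 genes at least as abundant in control cells, Rln1 included, 2 had as low a DHC to control ratio. These were Rln1 and the stress-response gene Gadd45a, named after its values were seen. By that ratio Rln1 ranked 111 from the bottom of the 10667 genes tested. The difference of −808.2 RPKM was the second largest loss of all genes in the table.

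The other relaxin genes were sparsely expressed, and Rln1 made up 98.6% ± 0.176 of the summed RPKM of the 4 relaxin-family peptide genes in the table with DHC and 99.5% ± 0.0539 in controls. Insl6, an insulin-like gene whose exons begin 6475 bases from Rln1, was at 5.96 ± 1.08 RPKM with DHC and 5.95 ± 0.651 RPKM in controls (log2 fold change −0.0066 ± 0.13, SE, limma adjusted p = 0.973). The sign turned without DHC replicate 2 (0.02), DHC replicate 3 (0.09) or control replicate 1 (0.07). Rxfp2 was the relaxin-family receptor with a row in the table, and it averaged 0.00 RPKM with DHC and 0.00986 RPKM in controls. Of 16 listed relaxin-family, receptor and proprotein convertase genes other than Rln1, 10 were in the table and 3 passed the filter of 1 RPKM. Of these 3, 1 fell (33.3%, against 34.5% of all genes). This was Furin, a protease that cleaves many precursor proteins. It was at 8.42 ± 0.425 RPKM with DHC and 10.2 ± 0.74 RPKM in controls (limma adjusted p = 0.0381). That call ended with no filter on low values (0.0674) and when DHC replicate 1, 2 or 3 or control replicate 2 or 3 was left out (0.0794, 0.122, 0.0536, 0.119 and 0.109).

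**Figure D1:**
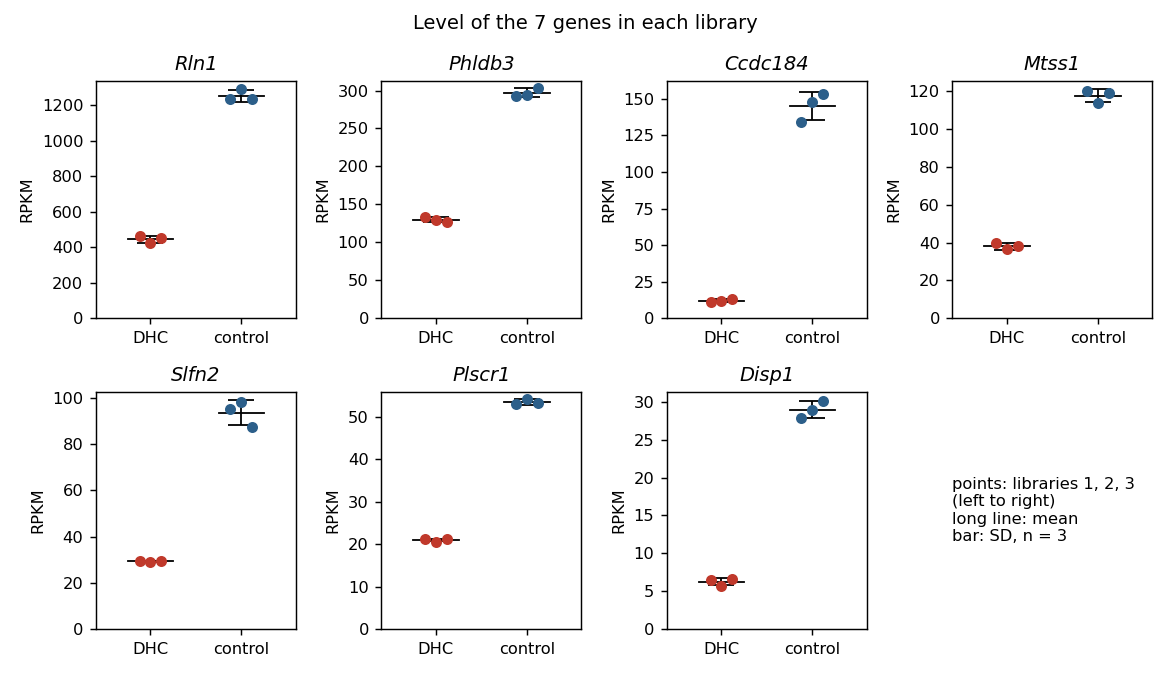
RPKM of each of the 7 genes (vertical axes, linear from 0) in the 3 DHC libraries and the 3 control libraries, with means as long lines and SD as bars (n = 3). In every panel the DHC points lie below the control points, most widely for Ccdc184, with means of 11.8 RPKM against 145.3 RPKM.

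Ccdc184 had the largest difference of the 7. It was at 11.1, 11.5 and 12.9 RPKM in the DHC libraries and at 134.5, 148.1 and 153.3 RPKM in the control libraries. The lowest control library was 10.4 times the highest DHC library. The means were 11.8 ± 0.971 RPKM and 145.3 ± 9.7 RPKM, so that 8.15% of the control level was left. The log2 fold change of −3.51 was the lowest of all 10667 genes tested, and by the plain ratio of means, 12.3-fold, Ccdc184 ranked 2 from the bottom. Reads per library numbered 461 to 529 with DHC and 5755 to 7336 in controls. It ranked 5163 with DHC and 680 in controls. Of the 680 genes at least as abundant in control cells, only Ccdc184 itself had as low a ratio. Counted in this way, each gene included, the numbers were 10 of 307 for Phldb3, 11 of 828 for Mtss1 and 11 of 1021 for Slfn2. They were 28 of 1711 for Plscr1 and 7 of 2875 for Disp1. Level and difference were both used in choosing the 7, so these counts are a description. The relative spread was the widest of the 7, with a coefficient of variation of 8.20% with DHC and 6.67% in controls, against medians of 7.29% and 7.47% over all genes tested.

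For want of a known pathway of Ccdc184, the other genes whose symbols begin with Ccdc were counted, which share little beyond a predicted coiled coil. Of 116 such genes 69 were tested, 16 fell and 15 rose (44.9%, with a median log2 fold change of 0.04), where 34.5% of all genes tested passed in either direction with a median of 0.05. Without DHC replicate 2, 9 were lower, and without control replicate 2, 10. Those with the lowest p-values were Ccdc102a, at 20.2 ± 1.34 RPKM with DHC and 47.0 ± 4.15 RPKM in controls, Ccdc117, which rose 1.66-fold, Ccdc88c, an actin and G protein regulator also called Daple, which fell 1.58-fold, and Ccdc186, which fell 1.40-fold.

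**Figure D2:**
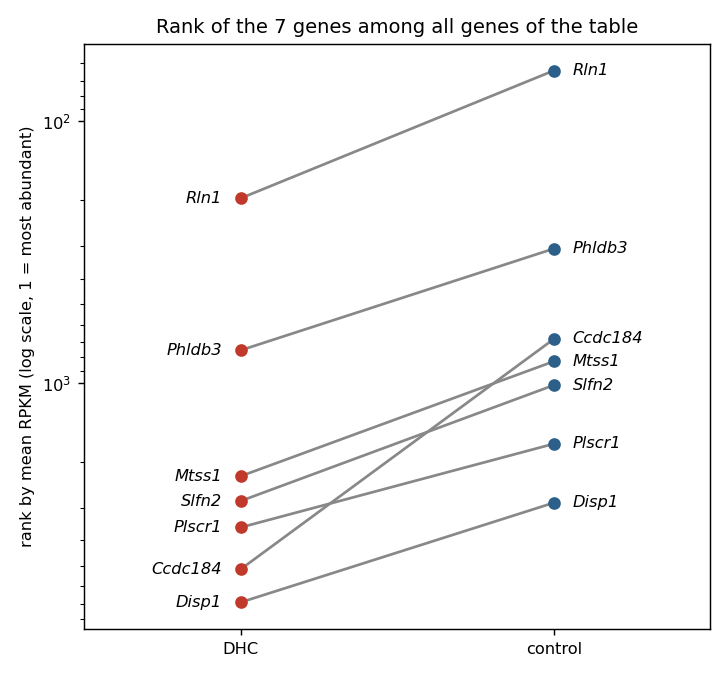
Rank of the 7 genes by mean RPKM among 18286 genes (vertical axis, log scale, 1 at the top) in the DHC group on the left and the control group on the right. All 7 stand at a lower place with DHC, and Ccdc184 stands at rank 5163 with DHC and at rank 680 in controls, crossing the lines of Mtss1, Slfn2 and Plscr1.

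Mtss1 encodes a protein that binds the plasma membrane and actin, and Phldb3 a relative of proteins of the cell cortex. Mtss1 was at 39.7, 36.4 and 38.0 RPKM in DHC libraries and at 120.4, 113.7 and 119.2 RPKM in control libraries. Replicate 2 was the lowest library in both groups, and the groups did not overlap. The means of 38.0 ± 1.66 and 117.7 ± 3.55 RPKM differed 3.10-fold (log2 fold change −1.61). The family's second gene, Mtss1l, averaged 0.0131 RPKM with DHC and 0.0113 RPKM in controls, so that nearly all reads of the pair were those of Mtss1. The remaining I-BAR genes, Baiap2, Baiap2l1 and Baiap2l2, were likewise below the filter, with group means of at most 0.539 RPKM.

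Of 22 listed I-BAR genes and actin partners besides Mtss1, 18 were in the table and 8 were tested. Of these, 2 fell and 1 rose (37.5%, against 34.5% of all genes), with a median log2 fold change of −0.06. Both that fell encode formins, which elongate actin filaments. Diaph1 was at 65.4 ± 0.556 RPKM with DHC and 87.4 ± 3.94 RPKM in controls (limma adjusted p = 0.000585), and Daam1 at 20.8 ± 1.85 RPKM with DHC and 30.9 ± 3.27 RPKM in controls (0.00342). Wasl, an activator of actin branching, rose 1.24-fold (limma adjusted p = 0.0318). The Wasl call ended under median-of-ratios scaling (0.0587), with no filter (0.0631), and without DHC replicate 1, 2 or 3 or control replicate 2 or 3 (0.0809, 0.0854, 0.0589, 0.0946 and 0.094). The adaptor gene Cttn (cortactin), which binds Mtss1, was at 34.4 ± 1.46 RPKM with DHC and 30.9 ± 2.53 RPKM in controls (0.132), and is named after its values were seen.

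Phldb3 was the second most abundant of the 7 and the one with the smallest relative difference. It stood at 133.3, 129.4 and 126.5 RPKM in the DHC libraries and at 293.0, 293.9 and 303.6 RPKM in the control libraries. The spread within each group was small, with coefficients of variation of 2.63% and 1.99%, and the groups were far apart. The means were 129.8 ± 3.41 RPKM with DHC and 296.9 ± 5.89 RPKM in controls, 2.29-fold lower (log2 fold change −1.19). Its rank was 751 with DHC and 307 in controls.

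The relatives of Phldb3 were much less abundant. Phldb1 was at 5.76 ± 0.415 RPKM with DHC and 6.82 ± 0.251 RPKM in controls (log2 fold change −0.21, limma adjusted p = 0.0709). It passed as lower with limma-voom (0.0207) and under median-of-ratios (0.0373) or trimmed-mean scaling (0.0435). Phldb2 was at 1.78 ± 0.137 RPKM with DHC and 1.45 ± 0.118 RPKM in controls (log2 fold change 0.18, limma adjusted p = 0.218). Phldb3 made up 94.5% ± 0.41 of the summed RPKM of the 3 genes with DHC and 97.3% ± 0.138 in controls. Of 18 listed family members and partners at the cell cortex, all were in the table and 9 were tested. Of these 9, 2 fell and 1 rose (33.3%, against 34.5% of all genes, median −0.11). Kif21b, a kinesin gene, was at 12.9, 12.2 and 11.5 RPKM with DHC and at 23.4, 23.3 and 24.3 RPKM in controls, 1.94-fold lower (limma adjusted p = 4.91e-05). Erc1, which binds LL5 proteins, fell 1.25-fold (0.00491). Ppfia1, which encodes liprin alpha 1, rose 1.16-fold (0.0239). The Ppfia1 call ended under median-of-ratios scaling (0.0632), without both libraries numbered 1 (0.0727), and without DHC replicate 2 or 3 or control replicate 1 or 3 (0.0699, 0.0707, 0.05005 and 0.0741).

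Slfn2 and Plscr1 are both known as interferon-induced genes. Slfn2 was at 29.4, 28.8 and 29.6 RPKM in the DHC libraries, whose coefficient of variation of 1.37% was the lowest of the 7 genes with DHC, and at 95.3, 98.3 and 87.6 RPKM in the control libraries. The means of 29.2 ± 0.401 and 93.8 ± 5.52 RPKM differed 3.21-fold (log2 fold change −1.65). Control replicate 3 was the lowest of its group and still 2.96 times the highest DHC library.

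The nearest tested genes on both sides of Slfn2 are also Schlafen genes. Slfn13, whose exons begin 27808 bases away, fell to 22.3, 19.95 and 19.9 RPKM with DHC, against 34.7, 32.3 and 30.9 RPKM in controls, 1.57-fold (limma adjusted p = 0.000465). Slfn4, 35407 bases away on the other side, was at 73.6, 61.7 and 58.4 RPKM with DHC and at 79.9, 67.8 and 56.2 RPKM in controls. These groups overlapped (log2 fold change −0.06 ± 0.13, SE, limma adjusted p = 0.736), and the sign turned without DHC replicate 3 (0.0024) or control replicate 1 (0.06). Slfn5, a further interferon-induced member, stayed below the filter with 0.105 RPKM with DHC and 0.202 RPKM in controls. In the summed RPKM of the 5 Schlafen genes, 114.6 ± 9.48 with DHC and 194.5 ± 17.97 in controls, Slfn2 made up 25.6% ± 2.02 and 48.3% ± 2.59. Schlafen genes are similar in sequence, so these values could depend on how the authors' counting assigned reads that match several of them, which was not tested.

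**Figure D3:**
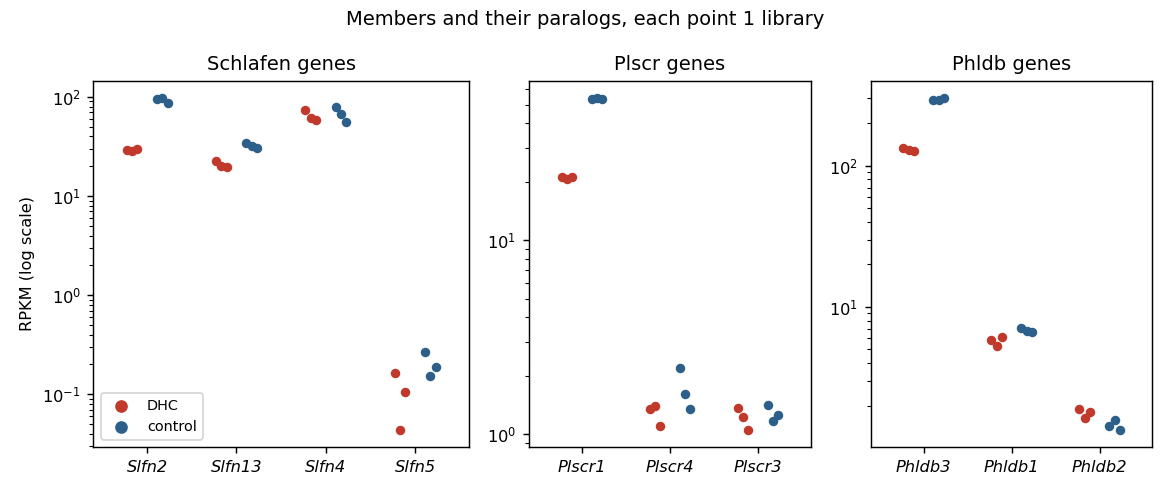
RPKM per library (vertical axes, log scale) of Slfn2, Plscr1 and Phldb3 and of their relatives, with DHC points left of the control points. Slfn4 overlaps between the groups and Slfn13 does not, while the Plscr and Phldb relatives lie far below Plscr1 and Phldb3.

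Plscr1 had the tightest control values of the 7. It was at 21.2, 20.6 and 21.1 RPKM in the DHC libraries and at 53.1, 54.3 and 53.3 RPKM in the control libraries. The coefficient of variation was 1.58% with DHC and 1.19% in controls, and the means of 21.0 ± 0.332 and 53.6 ± 0.636 RPKM differed 2.55-fold (log2 fold change −1.31). Its rank was 3572 with DHC and 1711 in controls. The relatives Plscr4 (1.28 ± 0.156 RPKM with DHC, 1.72 ± 0.432 RPKM in controls, limma adjusted p = 0.232) and Plscr3 (1.21 ± 0.157 and 1.28 ± 0.125 RPKM, 0.795) did not pass the threshold, and the log2 fold change of Plscr3, −0.05, was 0.0083 without DHC replicate 3. Plscr1 gave 89.4% ± 1.19 of the summed RPKM of the 3 genes with DHC and 94.7% ± 0.92 in controls.

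Of 30 further genes of phospholipid scramblases and flippases, which move lipids between the leaflets of a membrane, 22 were in the table and 16 were tested. Of these, 2 fell and 2 rose (25%, against 34.5% of all genes, median 0.06). The flippase genes Atp8b4 and Atp8b2 fell 1.79-fold and 1.61-fold, to 6.8 ± 0.287 and 13.2 ± 0.696 RPKM with DHC (limma adjusted p = 0.0002 and 0.000242). Atp11b rose 1.35-fold (0.0043) and Atp9b 1.38-fold (0.0139), the Atp9b call ending without DHC replicate 2 (0.0503). Without that library 1 gene of the list was higher, and 4 were with a replicate block or without both libraries numbered 1. Ano6, the calcium-activated scramblase of platelets, was at 9.14 ± 0.401 RPKM with DHC and 9.58 ± 0.898 RPKM in controls (0.605), and is named after its values were seen.

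The share of other interferon-stimulated genes that passed the test in either direction was near that of all genes. Of 46 listed besides Slfn2 and Plscr1, 43 were in the table and 30 were tested, of which 6 fell and 4 rose (33.3%, against 34.5% of all genes). Over all genes tested 16.1% were lower and 18.4% higher. The median log2 fold change was −0.11 in the list and 0.05 over all genes tested. Irf1 rose 1.81-fold and Stat2 1.70-fold, while Irf9, an interferon regulatory factor gene, fell 1.595-fold (limma adjusted p = 0.00014, 0.000124 and 0.000874). Eif2ak2, the double-stranded RNA sensor PKR, rose 1.40-fold (0.00199). Besides Irf9, those that fell were Ifit3, Gbp2, Gbp5, Ifi27 and Herc6, and Samhd1 also rose, all named after their values were seen. Ifit3 fell 2.63-fold at a low level, with means of 0.667 RPKM with DHC and 1.76 RPKM in controls (limma adjusted p = 0.0088). With no filter on low values, without DHC replicate 3 or without control replicate 2, 3 genes of the list were lower.

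Disp1 was the least abundant of the 7 in both groups. It was at 6.47, 5.72 and 6.59 RPKM in the DHC libraries and at 27.9, 28.9 and 30.1 RPKM in the control libraries. The lowest control library was 4.23 times the highest DHC library, DHC replicate 3. The means were 6.26 ± 0.475 and 29.0 ± 1.13 RPKM, a 4.63-fold difference (log2 fold change −2.05). Disp1 ranked 6908 with DHC and 2875 in controls, where the median of all genes tested was 11.0 RPKM. It had 900 to 968 reads per DHC library and 4230 to 5178 per control library.

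Most other genes of the Hedgehog pathway were at low levels in both groups. Of 24 listed genes besides Disp1, 14 had a row and 2 passed the filter. Of these 2, 1 fell and 0 rose (50%, against 34.5% of all genes). The ligand genes Ihh and Dhh averaged 0.0347 and 0.278 RPKM with DHC and 0.0182 and 0.13 RPKM in controls. The receptor gene Ptch1 was at 0.314 and 0.407 RPKM, the signal transducer Smo at 0.0424 and 0.0219 RPKM and the target transcription factor Gli1 at 0.0514 and 0.0451 RPKM, in each case with DHC and in controls. Of the 2 tested, Sufu, which holds back the Gli factors, was at 4.64 ± 0.528 RPKM with DHC and 4.72 ± 0.36 RPKM in controls (limma adjusted p = 0.887). Kif7, a kinesin of the pathway, fell to 6.99 ± 0.776 RPKM with DHC, against 9.82 ± 1.08 RPKM in controls (0.0161), a call that ended without control replicate 2 (0.056). Disp2 averaged 0.171 RPKM with DHC and 0.195 RPKM in controls.

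The order of the 7 genes by level differed between the groups in the place of Ccdc184. With DHC the order was Rln1, Phldb3, Mtss1, Slfn2, Plscr1, Ccdc184 and Disp1, and in controls it was Rln1, Phldb3, Ccdc184, Mtss1, Slfn2, Plscr1 and Disp1. No pair of neighbours in either order overlapped between libraries. The closest were Mtss1 and Slfn2 with DHC, whose means differed 1.30-fold (lowest Mtss1 library 36.4 RPKM, highest Slfn2 library 29.6 RPKM), and Ccdc184 and Mtss1 in controls, at 1.23-fold. Levels are compared per length here, and depend on the exon length chosen for each gene.

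The genes that surround each of the 7 on its chromosome were not used in choosing them. Of the 42 genes that were the 3 nearest on each side, 28 were tested, of which 8 fell and 4 rose (42.9%, against 34.5% of all genes). Of all genes tested, 16.1% were lower and 18.4% higher. The median log2 fold change of the neighbours was 0.03, where that of all genes was 0.05. The number that fell was 7 without DHC replicate 3 and without both libraries numbered 1, and 8 under every other alternative. The number that rose was 2 with no filter on low values and without DHC replicate 2, DHC replicate 3 or control replicate 1. It was 7 without DHC replicate 1 and with a replicate block. The lowest value among them was −0.73, for Cd274, which encodes the checkpoint ligand PD-L1 and lies 33.7 kb from Rln1. It was at 22.9 ± 4.42 RPKM with DHC and 38.4 ± 5.86 RPKM in controls (limma adjusted p = 0.00744). On the other side of Rln1, Jak2, the kinase of many cytokine receptors, fell 1.31-fold (0.00338), while Plgrkt, the nearest gene on the Cd274 side, had a log2 fold change of 0.06 (0.852) whose sign turned without DHC replicate 2 (−0.16) or control replicate 3 (−0.06).

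Ccdc184 lies 28.0 kb from Asb8, which was at 4.06 ± 0.526 RPKM with DHC and 3.15 ± 0.384 RPKM in controls (limma adjusted p = 0.0915). Senp1, a SUMO protease gene 87.4 kb away, fell 1.58-fold (0.00284), and no gene among the 3 nearest on the far side passed the filter. Next to Mtss1, at 1360 bases, Ndufb9, a subunit of respiratory complex I, rose 1.12-fold (0.0398), and Rnf139, a ubiquitin ligase gene, fell 1.39-fold (0.0179). The Rnf139 call ended without DHC replicate 3 (0.0562) and without both libraries numbered 1 (0.0795). The Ndufb9 call ended under both scalings (0.151 and 0.111), with no filter (0.0769), without both libraries numbered 1 (0.097), and without DHC replicate 1, 2 or 3 or control replicate 1 or 3 (0.0847, 0.133, 0.0567, 0.0821 and 0.0909). Sqle, 648.4 kb away on the other side of Mtss1, encodes an enzyme of cholesterol synthesis and did not pass (0.064). It did pass with limma-voom (0.0169), with a replicate block (0.0129), without DHC replicate 1 (0.012) and without both libraries numbered 1 (0.0146).

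Phldb3 is flanked by Ethe1 at 2456 bases and Lypd3 at 7190 bases. Ethe1, a mitochondrial sulfur dioxygenase gene, was at 7.88 ± 1.15 RPKM with DHC and 6.11 ± 0.441 RPKM in controls (limma adjusted p = 0.0548). It passed as higher without DHC replicate 1 (0.0242), without both libraries numbered 1 (0.0489), with a filter of 5 RPKM (0.0485) and with a replicate block (0.0369). Lypd3 rose 1.49-fold (0.0275), a call that ended with no filter (0.0687), without both libraries numbered 1 (0.0518), and without DHC replicate 2 or 3 or control replicate 1 or 2 (0.0881, 0.0869, 0.0742 and 0.0832).

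Around Disp1, Capn2, a calpain protease gene 523.1 kb away, fell 1.497-fold and Aida 1.35-fold, while Mia3, which helps large cargo leave the endoplasmic reticulum, rose 1.29-fold (limma adjusted p = 0.000156, 0.0033 and 0.000885). Brox, the nearest tested gene on that side, was at 22.1 ± 1.26 RPKM with DHC and 20.3 ± 0.352 RPKM in controls (0.175). Around Plscr1, Plod2, a collagen lysyl hydroxylase gene 252.1 kb away, fell 1.497-fold and RGD1309079, at 2363 kb, rose 1.66-fold (0.00356 and 0.0131). The RGD1309079 call ended without both libraries numbered 1 (0.0658). Morf4l1, the nearest tested gene on the other side at 2131 kb, was at 738.4 ± 46.9 RPKM with DHC and 679.3 ± 6.45 RPKM in controls (0.12), and passed without DHC replicate 1 (0.0187) and without both libraries numbered 1 (0.00884).

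**Figure D4:**
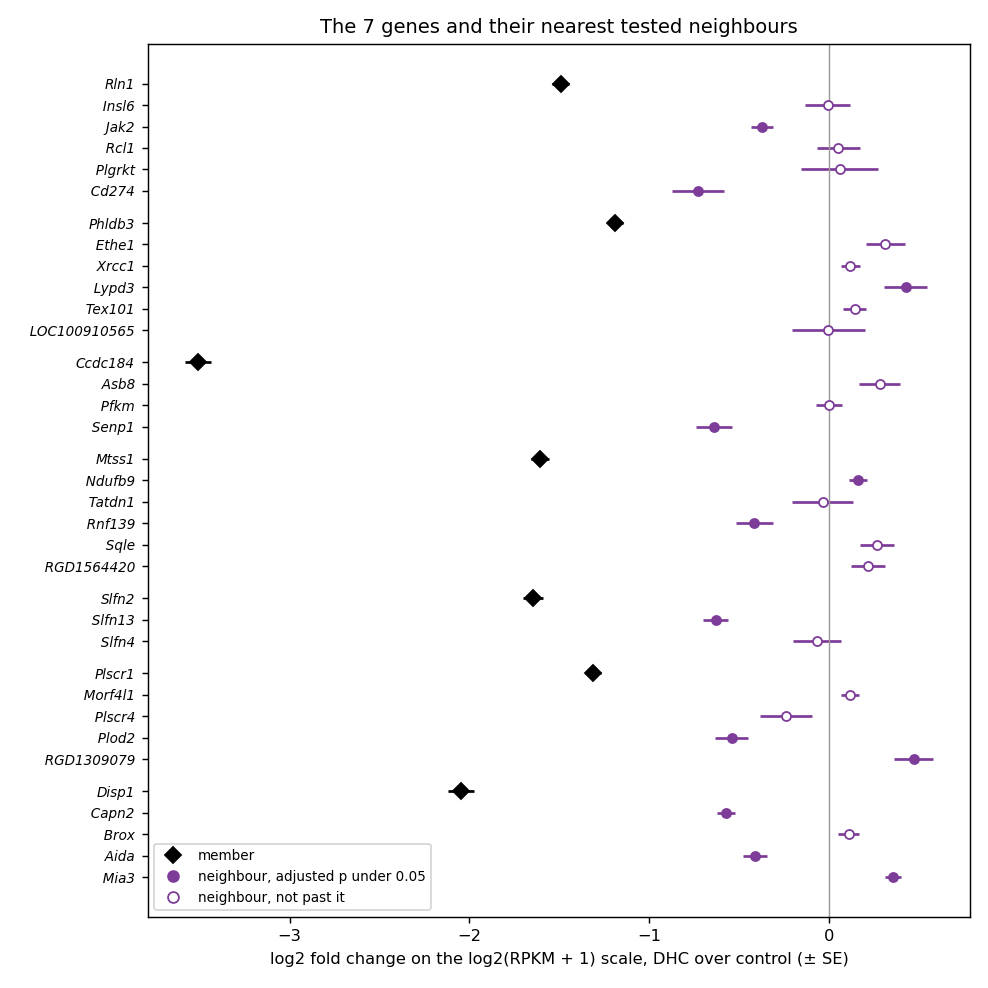
Log2 fold change, DHC over control, on the log2(RPKM + 1) scale (horizontal axis, bars give SE) of the 7 genes (diamonds) and of their tested neighbours (circles, filled where the limma adjusted p was under 0.05). The diamonds lie between −3.51 and −1.19 and the neighbours between −0.73 and 0.47.

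For each of the 7 genes the genes with the most similar profile were found, as the smallest root mean square difference over the 6 libraries of log2(RPKM + 1) minus its control mean. The contrast between the groups makes up most of this measure, so the values are a description. Nearest to Ccdc184 was Gfi1, a transcriptional repressor of blood cells, at a distance of 0.24, with 12.2 ± 1.18 RPKM with DHC and 121.8 ± 4.41 RPKM in controls. Next was Rgs2, a regulator of G protein signalling, at 0.41. For the other 6 genes the distances were shorter, between 0.03 and 0.09.

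Nearest to Slfn2 were Il1rl1, the receptor gene for interleukin-33 (0.04), and Themis2, a signalling scaffold gene (0.06). Il1rl1 was at 14.8, 15.0 and 14.8 RPKM with DHC and at 51.1, 48.7 and 45.6 RPKM in controls. Nearest to Plscr1 were Sema6d, a semaphorin gene (0.03), and Bhlhe40, a transcriptional repressor gene (0.04), the second at 43.4 ± 1.09 RPKM with DHC and 107.7 ± 5.32 RPKM in controls. Nearest to Disp1 were Csf1, a macrophage growth factor gene (0.05), and Fhl2, a LIM-domain gene (0.09). Nearest to Mtss1 were Trib2, a pseudokinase gene, and Fosl2, an AP-1 subunit gene, to Phldb3 Trim6 and Arhgap23, and to Rln1 Psd4 and P2ry14, a receptor for UDP sugars. Among the 7 themselves Mtss1 and Slfn2 were the most alike (0.08), followed by Phldb3 and Plscr1 (0.09) and by Rln1 and Mtss1 (0.09), and Ccdc184 stood at least 1.04 from every other.

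All 7 genes had a lower fitted value with DHC under each of the 15 alternatives. Across these, the log2 fold change ranged from −3.62 to −3.47 for Ccdc184, from −2.21 to −1.99 for Disp1, from −1.70 to −1.61 for Slfn2, from −1.66 to −1.58 for Mtss1, from −1.55 to −1.45 for Rln1, from −1.37 to −1.30 for Plscr1 and from −1.24 to −1.17 for Phldb3. RPKM corrects for the library total alone. Over all genes tested with limma, 1717 were lower and 1968 higher at an adjusted p under 0.05, against 2049 lower and 1364 higher under median-of-ratios scaling and 1960 lower and 1504 higher under trimmed-mean scaling. Without DHC replicate 2, 1201 genes were higher.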

How the data were processed

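RNA of 6 RBL-2H3 samples, 3 labelled DHC and 3 control, was extracted with Trizol for Illumina sequencing, per the labels' protocols. The submitters' processing notes name Rnor_6.0 as the build and list edgeR 3.12.1, Subread 1.5.1 with featureCounts, and Trimmomatic 0.36. Which aligner and annotation release the authors used, and whether strand was counted, is not given in the sources used here. The deposited values were found to be RPKM, since value times exon length is a whole multiple of 1 step per library for 100% of values within 0.01 read, and the implied total equals each column's own. Reads per gene were recovered from these steps.

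For 10667 genes (mean over all 6 libraries of 1 RPKM or more) log2(RPKM + 1) was fitted on group alone with limma 3.58.1 in R 4.3.3, with trended variance. P-values were adjusted over all of them by Benjamini-Hochberg, with a threshold of 0.05. Log2 fold changes are on that scale, which understates changes of low genes, and N-fold values are ratios of mean RPKM. Values after ± are SD over 3 libraries unless SE is written. The members, the gene lists and the tests were chosen with earlier results of these data known. Names in the text follow a rule. Of each list the relatives of a member are named, and up to 4 others with the lowest p among those past the threshold. Of the neighbours, the nearest tested gene on each side and any past the threshold are named, and of similar profiles 2 per gene. Genes named outside the rule are said to be so, apart from members of a list given with values because they stayed below the filter. Distances to neighbours run between exons, because some rows hold exons megabases apart. Sequences are from RefSeq tables of GRCr8, in which 3 of the 7 genes matched a promoter. Alternatives were pseudocounts of 0.1 and 0.5, no filter and a filter of 5 RPKM, median-of-ratios factors, a trimmed mean of log ratios (0.3 from each end), limma-voom on recovered reads, a replicate block, leaving out each library, and, added after seeing the data, leaving out both libraries numbered 1.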

Additional observations from a re-analysis of the deposited data

How the results depend on the processing

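The 7 genes kept a lower value with DHC in all alternatives. Over all genes, leaving out 1 library gave between 1275 and 1609 lower and between 1201 and 1746 higher genes. In short lists 1 gene changes a count by a large factor. When 1 library was left out, the number higher was between 1 and 3 for scramblases and flippases, between 0 and 1 for I-BAR proteins and partners and for PHLDB partners, between 2 and 7 for chromosomal neighbours, and the number lower between 0 and 1 for the Hedgehog and relaxin lists, between 3 and 5 for interferon-stimulated genes and between 9 and 17 for genes named Ccdc. Under median-of-ratios factors 0 I-BAR partners and 0 PHLDB partners were higher. With no filter on low values 0 relaxin-list genes were lower and 1 higher, 3 interferon-stimulated genes were lower and 2 neighbours higher. Without both libraries numbered 1, 4 scramblases and flippases and 0 PHLDB partners were higher. The cause of these changes was not tested. Some small differences turned sign without 1 library. The log2 fold change then lay between −0.13 and 0.086 for Insl6, between −0.16 and 0.20 for Plgrkt, between −0.0946 and 0.0083 for Plscr3 and between −0.19 and 0.058 for Slfn4, and none of these 4 genes passed the threshold in any alternative.

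Same-numbered libraries deviated together only in part, with correlations of their deviations of 0.23, −0.05 and 0.08 for numbers 1, 2 and 3. Between differently numbered libraries the correlations lay between −0.18 and 0.11. With 3 libraries per group these values cannot show whether the numbers pair the samples, and the labels state no pairing. With the replicate block 1907 genes were lower and 2426 higher, with 4 scramblases and flippases and 7 neighbours higher, and Ethe1 and Sqle passed as higher (limma adjusted p = 0.0369 and 0.0129). Genes under 1 RPKM, among them most Hedgehog genes and the Schlafen gene Slfn5, had few reads and were below the filter, so differences in them were not tested.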
